A study of Mus musculus with 20 samples.

Results

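Steroid reductases and 11-beta dehydrogenases remove or restore the activity of steroid hormones after these have been made. The 9 mouse genes Akr1d1, Akr1c12, Akr1c13, Akr1c14, Srd5a1, Srd5a2, Srd5a3, Hsd11b1 and Hsd11b2 were selected by gene symbol from a table of 47729 genes, and each was found once. RNA had been sequenced from whole mouse adrenal glands, cortex and medulla together, in 20 libraries. The 5 control females (genotype label SCC::Cre_CTRL, 1.5 to 3.4 months old) and the 6 control males (2.9 to 4.7 months) were compared with 5 females and 4 males labelled SCC::Cre_BMAL1 KO (2.4 to 3.4 and 2.9 to 3.7 months). All 4 groups share the Cre driver, named after the side-chain cleavage enzyme, a protein of steroid-producing cells, so the chromaffin, vessel and immune cells of the gland are outside its usual range. Females and males thus differed in age as well as in sex, more so among the controls.

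Reads assigned to genes ran from 13421985 to 26742820 per library. Arntl, the official symbol of Bmal1 and the partner of CLOCK in the circadian clock, gave 365 to 1092 normalised reads in the 11 control libraries and 833 to 1010 in the 9 labelled Bmal1 KO. Its reads were thus no lower with the KO label, and a whole-gene sum that may include undeleted exons checks nothing about the deletion. Nr1d1, a direct target of the clock, ranged from 1091 to 3410 in the controls and from 160 to 450 in the libraries labelled Bmal1 KO. Star, which brings cholesterol into mitochondria, gave at least 129730 normalised reads in every library, and Th of the medulla lay between 5057 and 13818. Of the 6 liver markers Cyp2e1 alone was above 79.9 normalised reads in any library, the 6 kidney markers summed to at most 10.99, and Umod and Slc34a1 of the kidney were at 0 in all 20 libraries.

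Active steroid hormones of the adrenal carry a double bond in their first ring. AKR1D1 reduces that bond to the 5-beta form, a bent molecule on the route to bile acids in liver, while SRD5A1 and SRD5A2 reduce it to the flat 5-alpha form, as in the conversion of testosterone to dihydrotestosterone. The AKR1C enzymes act on ketone and hydroxyl groups of steroids, and SRD5A3, despite its name, reduces polyprenol to dolichol, the lipid carrier of protein glycosylation. HSD11B1 regenerates active corticosterone inside the endoplasmic reticulum, and HSD11B2 inactivates it, a step best known from the kidney.

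Sequences just upstream of 5 of the genes are given first: those of the genes with the highest level in each sex, the 1 that holds the motif of the clock proteins, and a pair that shows how alike neighbouring genes are. They come from RefSeq (GRCm38.p6), which had an entry for 8 of the 9 genes, are written 5′ to 3′ on the gene's own strand, and end where the annotated gene begins. Those of Akr1d1 (chr6:37529923-37530172, plus strand) and Srd5a2 (chr17:74047917-74048110, minus strand) precede the member with the highest female level and that with the highest male level, per kb of exon. That of Srd5a3 (chr5:76140023-76140270, plus strand) holds an E-box, the CACGTG element that CLOCK and BMAL1 are known to bind, shown in capitals.
Akr1d1: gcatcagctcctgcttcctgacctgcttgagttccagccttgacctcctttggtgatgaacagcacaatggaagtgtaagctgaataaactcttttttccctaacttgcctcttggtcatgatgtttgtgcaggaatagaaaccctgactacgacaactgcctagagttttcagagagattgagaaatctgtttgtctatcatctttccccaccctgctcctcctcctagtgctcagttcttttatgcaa
Srd5a2: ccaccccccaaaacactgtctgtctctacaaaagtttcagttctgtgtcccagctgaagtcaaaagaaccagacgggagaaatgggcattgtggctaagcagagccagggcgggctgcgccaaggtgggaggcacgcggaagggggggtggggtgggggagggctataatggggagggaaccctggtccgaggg
Srd5a3: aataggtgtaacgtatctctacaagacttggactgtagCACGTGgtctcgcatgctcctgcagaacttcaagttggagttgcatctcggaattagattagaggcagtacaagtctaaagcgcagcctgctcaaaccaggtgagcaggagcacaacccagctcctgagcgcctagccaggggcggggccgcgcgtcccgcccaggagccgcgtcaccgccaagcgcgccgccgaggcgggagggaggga

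The E-box of Srd5a3 starts at base 39 of its printed stretch, 210 bases before the gene. Among the 250 bases upstream of all 32851 RefSeq promoters, 6.02% hold CACGTG, and Srd5a3 was the 1 member of 8 that did. No member held AAGGTCA, the element of the adrenal factor NR5A1 (4.08% of promoters), AGAACA, a half-site of the glucocorticoid receptor (16.1%), TTCNNNGAA, the STAT element (7.02%), or TATAAA (12.4%). Both strands were searched, none of these motifs contains another, and a match or its absence describes these letters only.

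Akr1c13 and Akr1c12 lie in the same cluster on chromosome 13 on opposite strands, and their upstream stretches align base for base over most of their length. Of 212 aligned bases 203 were identical (95.8%), and capitals mark the bases that differ or have no partner. The stretches are chr13:4190937-4191149 on the plus strand and chr13:4279434-4279645 on the minus strand.
Akr1c13: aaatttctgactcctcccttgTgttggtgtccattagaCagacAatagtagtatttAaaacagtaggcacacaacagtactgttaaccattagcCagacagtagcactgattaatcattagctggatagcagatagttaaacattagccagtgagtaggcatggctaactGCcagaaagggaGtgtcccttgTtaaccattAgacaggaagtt
Akr1c12: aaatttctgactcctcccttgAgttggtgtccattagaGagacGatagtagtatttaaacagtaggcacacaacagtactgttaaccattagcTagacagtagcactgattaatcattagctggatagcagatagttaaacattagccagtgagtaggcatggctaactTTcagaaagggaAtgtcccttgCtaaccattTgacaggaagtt

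The main question for these genes was how the 2 sexes and the 2 genotypes differed. In controls 5 of the 9 members were higher in females (Akr1d1, Akr1c13, Srd5a1, Hsd11b1 and Hsd11b2) and 1 was lower (Srd5a2), against 13.5% of all 26612 tested genes called higher and 12.9% called lower. In libraries labelled Bmal1 KO, 5 were again higher in females (Akr1d1, Akr1c13, Srd5a1, Srd5a3 and Hsd11b1) and Srd5a2 was lower, against 12.1% and 10.6% of all genes. The median log2 difference between the sexes over the 9 members was 0.46 in controls and 0.62 in Bmal1 KO libraries, with medians of -0.05 and -0.07 over all genes. Between the genotypes no member was called in either sex. Calls rest on limma with Benjamini-Hochberg adjustment over all tested genes at a threshold of 0.05, on log2(normalised reads + 1). All 9 members passed the filter of at least 1 normalised read in at least 4 libraries.

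**Figure D1:**
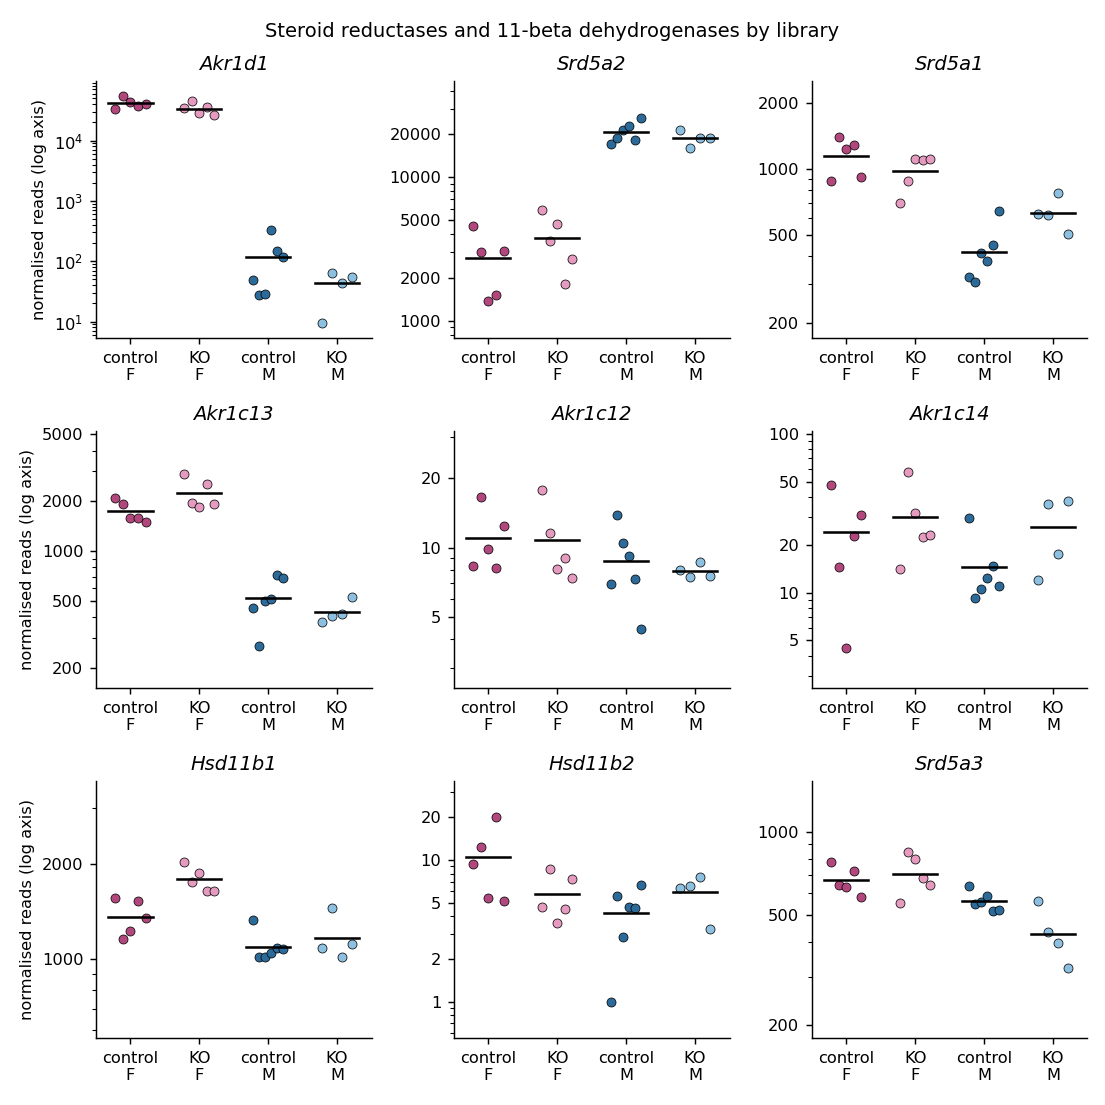
Normalised reads of the 9 genes in each library (points, log axis, scaled separately per gene) for control and Bmal1 KO females (F) and males (M), with the group mean as a bar. Akr1d1 and Akr1c13 were higher in all 10 females than in all 10 males, Srd5a2 was lower in all 10 females, and the other 6 genes overlapped between the sexes.

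Akr1d1 (ENSMUSG00000038641, chr6:37530173-37568815, plus strand, GRCm38) showed the widest gap between the sexes of the 9. In control females 1 to 5 it stood at 33730, 53706, 42823, 37947 and 40788 normalised reads, and in control males 1 to 6 at 49.4, 27.7, 28.6, 325, 147 and 117. Females labelled Bmal1 KO had 34091, 44623, 28095, 35564 and 26768, and males labelled Bmal1 KO 9.56, 64.9, 43.4 and 55.0. The lowest female library was above the highest male library in both genotypes, and the males varied far more among themselves than the females did. The coefficient of variation was 21.3% over the 10 females and 108% over the 10 males. On the log2 scale the female minus male difference was 9.03 ± 0.52 (SE, limma adjusted p = 7.04e-11) in controls and 9.84 ± 0.57 (adjusted p = 1.15e-10) in Bmal1 KO libraries. As ratios of group means these are 361-fold and 782-fold. Male levels were low but counted: from 12 to 211 reads per library.

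Akr1d1 was not called for genotype in either sex. The Bmal1 KO minus control difference was -0.31 ± 0.54 (adjusted p = 0.905) in females and -1.12 ± 0.55 (adjusted p = 0.473) in males. The male value moved between -1.42 and -0.53 when single libraries were left out, reaching -0.53 without Bmal1 KO male 1, the library with 12 reads, and -0.72 without control male 4, the one with 325 normalised reads.

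Females were also higher in markers of the X-zone, an inner cortical layer that persists in young females and regresses in males at puberty. The summed level of the 4 markers (Akr1c18, Pik3c2g, Cyp2f2 and Thrb) ran from 37664 to 137550 normalised reads in control females and 32182 to 101820 in Bmal1 KO females, against 599 to 1247 and 503 to 723 in males. Akr1c18 made up most of the sum in control females, with a mean of 62364 of 75467. In control males it was Thrb, with 585 of 877. All 4 markers were called higher in females in both genotypes. Between genotypes in females, Cyp2f2 fell by 2.83 ± 0.37 (adjusted p = 0.000117) and Thrb rose by 0.61 ± 0.11 (adjusted p = 0.00513), while Akr1c18 and Pik3c2g were not called. In a whole-gland library, fewer cells of a type and less RNA per cell cannot be told apart, and the part of the X-zone in the Akr1d1 difference was not tested. Alb, the defining liver marker, stood between 0 and 24.7 normalised reads in the female libraries.

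Among the males, Akr1d1 was highest in control male 4, which had the fewest reads of all libraries. The same library had the highest Xist of the males, 202 normalised reads against 8.30 to 59.4 in the other 9 and 5474 to 11840 in females, and its Akr1c18 stood at 532. Akr1c18 was 562 in control male 5, where Xist was 31.1. Set against the female median, control male 4 held 0.883% of Akr1d1, 0.980% of Akr1c18 and 2.33% of Xist. In Bmal1 KO male 1, the deepest library, the shares were 0.0260%, 0.0132% and 0.304%. The share of Xist was above that of Akr1d1 in 9 of the 10 males and below it in control male 5, and whether female RNA entered these libraries was not tested.

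**Figure D2:**
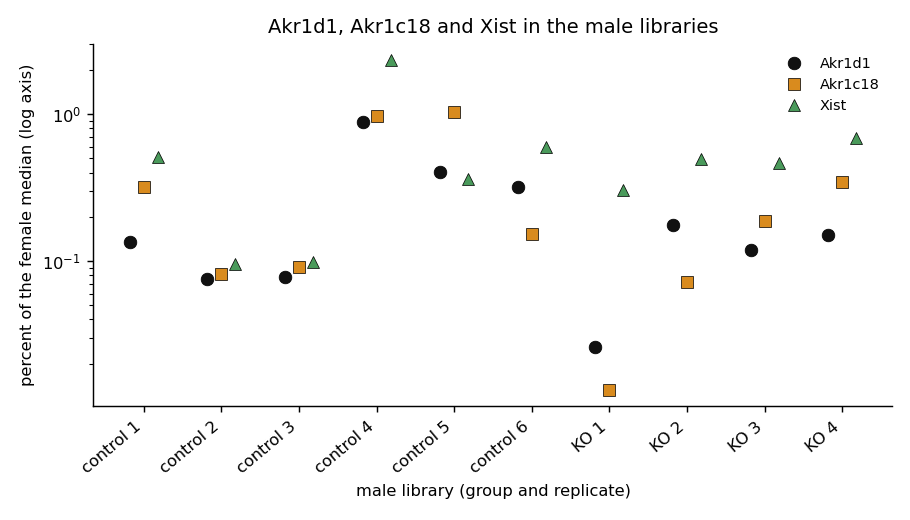
Level of Akr1d1, Akr1c18 and Xist in each of the 10 male libraries as a percent of the median of the 10 female libraries (log axis). Control male 4 has the highest Akr1d1 (0.883%) and Xist (2.33%), and Bmal1 KO male 1 the lowest Akr1d1 (0.0260%) and Akr1c18 (0.0132%).

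Srd5a2 (ENSMUSG00000038541, chr17:74016955-74047916, minus strand), the 5-alpha-reductase best known from male reproductive tissue, ran the other way. Control males 1 to 6 had 17038, 18741, 21124, 22617, 18074 and 25880 normalised reads, and control females 1 to 5 had 4606, 3016, 1365, 1510 and 3084. Males labelled Bmal1 KO had 21386, 16052, 18750 and 18844, and females labelled Bmal1 KO 5939, 3619, 4685, 1792 and 2711. Every male was above every female, and here it was the females that spread, with a coefficient of variation of 46.5% against 14.7% in males. The female minus male difference was -3.05 ± 0.28 (adjusted p = 8.05e-08) in controls, where the male mean was 7.58-fold the female mean, and -2.43 ± 0.31 (adjusted p = 7.56e-06) in Bmal1 KO libraries, where it was 5.0-fold. The Bmal1 KO minus control difference was 0.49 ± 0.29 (adjusted p = 0.569) in females and -0.13 ± 0.30 (adjusted p = 0.940) in males. Of the 50-base windows of its transcript 6.23% recur in CT025731.1, an overlapping transcript on the same strand, so some of its reads could have been assigned to either or dropped.

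Srd5a1 (ENSMUSG00000021594, chr13:69573449-69611442, minus strand), the 5-alpha-reductase of liver, skin and brain, was higher in females. Control females 1 to 5 had 880, 1392, 1234, 1287 and 920 normalised reads, and control males 1 to 6 had 323, 306, 416, 383, 452 and 646. Females labelled Bmal1 KO had 698, 883, 1103, 1101 and 1108, and males labelled Bmal1 KO 622, 617, 779 and 504. Control females and males did not overlap, whereas in Bmal1 KO libraries male 3 was above female 1. The sex difference was 1.46 ± 0.18 (adjusted p = 3.07e-06) in controls and 0.63 ± 0.20 (adjusted p = 0.0247) in Bmal1 KO libraries. The second of these lost its call with age as a covariate (adjusted p = 0.0536) and when any of 5 single libraries was left out, namely Bmal1 KO female 3, 4 or 5 or Bmal1 KO male 2 or 4, with adjusted p between 0.0519 and 0.0921.

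Between genotypes Srd5a1 differed by -0.22 ± 0.19 (adjusted p = 0.729) in females and by 0.61 ± 0.19 (adjusted p = 0.147) in males. Control male 6, at 646, was the only control inside the Bmal1 KO male range. Without it the male difference was 0.74 ± 0.17 (adjusted p = 0.0239), and over all 33 alternative settings the adjusted p ran from 0.0201 to 0.504. The direct test of the female against the male effect gave -0.83 ± 0.26 (limma adjusted p = 0.477). The gene overlaps Nsun2 on the other strand and Gm17108 on its own strand, and 16.5% of its 50-base windows recur in Gm17108.

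Per kb of exon, a scale that allows for gene length, the member with the highest level was Akr1d1 in females and Srd5a2 in males. The length is that of all annotated exons of a gene together. For Hsd11b1 it was 4251 bases, against 1623 in the longest coding transcript, and for Srd5a3 4648 against 1747. For Akr1d1 it was 2893 against 2699, and for Srd5a2 1605 in both. The Akr1d1 level was 13071 ± 2787 normalised reads per kb (SD, n = 10) in females and 30.0 ± 32.3 in males, and that of Srd5a2 2014 ± 937 and 12368 ± 1822. Within each female library Akr1d1 exceeded Srd5a2 by 3.19 to 17.4 times, and within each male library Srd5a2 exceeded Akr1d1 by 126 to 4030 times. The sum of both 5-alpha genes was 2379 ± 885 per kb in females and 12540 ± 1831 in males. Srd5a2 made up 66.7% to 93.9% of that sum in females and 97.8% to 99.1% in males. So the ratio turned over between the sexes in all 20 libraries.

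**Figure D3:**
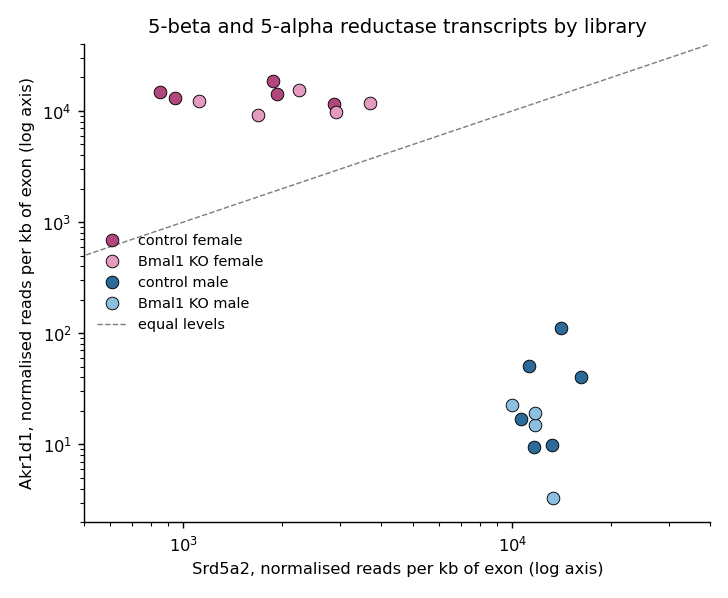
Akr1d1 against Srd5a2 in normalised reads per kb of exon (both axes log), 1 point per library, with a dashed line where both are equal. The 10 females lie above the line, by 3.19 to 17.4 times, and the 10 males below it, by 126 to 4030 times.

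The 3 Akr1c members lie within a single cluster on chromosome 13 and were at very different levels. Akr1c13 (ENSMUSG00000021213, chr13:4191150-4205596, plus strand), an oxidoreductase of steroids and other alcohols, had 2087, 1903, 1569, 1587 and 1486 normalised reads in control females and 455, 271, 501, 517, 719 and 686 in control males. Females labelled Bmal1 KO had 2904, 1931, 1838, 2526 and 1908, and males labelled Bmal1 KO 375, 407, 417 and 531. All females were above all males. The sex difference was 1.77 ± 0.19 (adjusted p = 6.24e-07) in controls and 2.35 ± 0.21 (adjusted p = 6.16e-08) in Bmal1 KO libraries, or 3.29-fold and 5.14-fold between the means. For genotype the differences were 0.35 ± 0.20 (adjusted p = 0.535) in females and -0.22 ± 0.20 (adjusted p = 0.771) in males, and the test between them gave 0.58 ± 0.28 (adjusted p = 0.793).

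Akr1c12 (ENSMUSG00000021211, chr13:4268176-4279433, minus strand), the close copy of Akr1c13, reached 4.42 to 17.8 normalised reads, from 4 to 19 reads in a library. The annotated transcripts of both are 94.6% identical over 1260 aligned bases, and 28.6% of their 50-base windows are shared, so reads from those stretches could not be assigned to either with certainty. Within each library Akr1c13 was 102 to 247 times Akr1c12 per kb in females and 17.2 to 136 times in males. The female minus male difference of Akr1c12 in controls was 0.34 ± 0.29 (adjusted p = 0.439). Akr1c14 (ENSMUSG00000033715, chr13:4049011-4090688, plus strand), a 3-alpha-hydroxysteroid dehydrogenase that acts on 5-alpha-reduced steroids, reached 4.50 to 57.7 normalised reads. Its lowest and highest values were both in females, control female 3 and Bmal1 KO female 2, and its sex difference in controls was 0.46 ± 0.48 (adjusted p = 0.527).

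Of 9 aldo-keto reductase genes along the cluster, 6 averaged at most 8.64 normalised reads per kb of exon in either sex. Akr1c18, the 20-alpha-hydroxysteroid dehydrogenase that inactivates progesterone, starts 83.6 kb after Akr1c14 and stood at 47190 normalised reads per kb on average in females (19270 to 103800) and 147 in males (5.94 to 466). Akr1c13 starts 142 kb after Akr1c14, with 1376 per kb in females and 340 in males. Between it and Akr1c12, at 219 kb, lies Akr1c19, which averaged 0.635 and 0.668 per kb. Akr1e1 at the far end stood at 383 and 288 per kb.

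**Figure D4:**
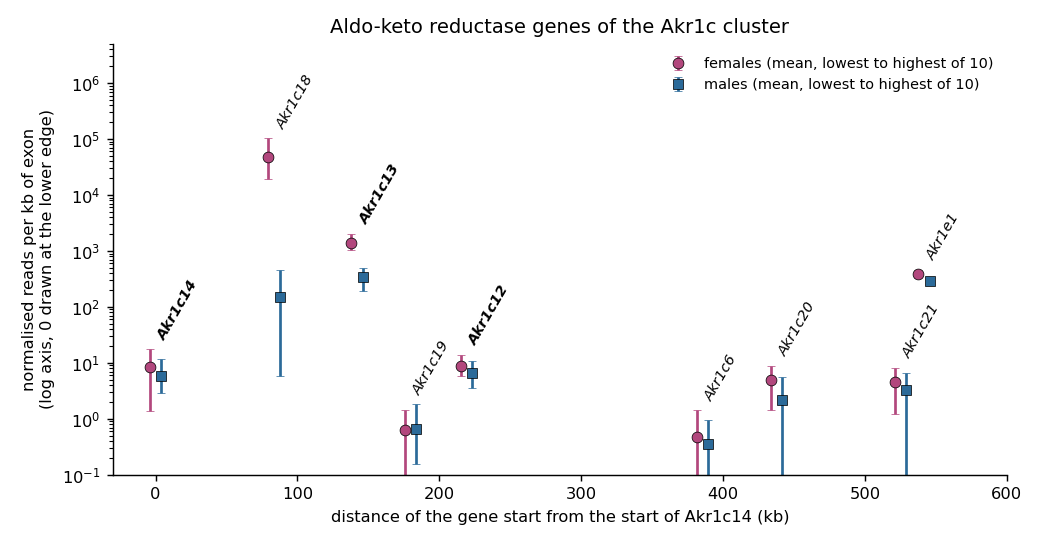
Mean normalised reads per kb of exon in 10 females and 10 males for 9 aldo-keto reductase genes of chromosome 13, with bars from the lowest to the highest library (log axis), by distance of the gene's start from that of Akr1c14, the 3 selected genes in bold. Akr1c18 and Akr1c13 show separated ranges for the sexes, and so does Akr1e1 (326 to 460 against 250 to 322 per kb).

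Hsd11b1 (ENSMUSG00000016194, chr1:193221634-193264075, minus strand) was the member nearest to a genotype call. Control females 1 to 5 had 1554, 1160, 1232, 1521 and 1347 normalised reads, and females labelled Bmal1 KO 2018, 1755, 1876, 1642 and 1640. Every Bmal1 KO female was thus above every control female, and the difference was 0.39 ± 0.10 (adjusted p = 0.0556), a mean ratio of 1.31. It passed the threshold in 6 of 33 alternative settings, where the adjusted p ran from 0.0126 to 0.152. The calls came with DESeq2 on recovered reads (0.0126), limma-voom (0.0399), a filter of at least 10 normalised reads in at least 4 libraries (0.0436), and without control female 1 (0.0344), control male 1 (0.0394) or Bmal1 KO male 2 (0.0270). The left-out males enter a female contrast only through the shared spread.

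In males Hsd11b1 had 1328, 1019, 1015, 1043, 1085 and 1075 normalised reads in controls 1 to 6 and 1087, 1451, 1016 and 1115 in those labelled Bmal1 KO. The difference was 0.09 ± 0.11 (adjusted p = 0.853), and the test of the female against the male effect gave 0.31 ± 0.15 (adjusted p = 0.772). The female minus male difference was 0.31 ± 0.10 (adjusted p = 0.0229) in controls, whose ranges overlapped, and 0.62 ± 0.11 (adjusted p = 0.000278) in Bmal1 KO libraries, whose ranges did not. The call in controls was lost without the 1.5-month control females (adjusted p = 0.140), within ages 2.4 to 3.7 months (0.107), and without control female 1 (0.0664) or 4 (0.0687).

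Hsd11b1 is also known from fat and stromal cells. The summed level of the 6 adipocyte markers was 3437 to 10283 normalised reads in control females and 4272 to 8192 in Bmal1 KO females, with none of them called between these groups. In males the sum was 3175 to 5411 and 4666 to 5815. Plin1 and Fabp4 dominated it, with means of 2352 and 2754 of 5593 in control females, where Adipoq ran from 3.09 to 977. Between genotypes Plin1 differed by 0.34 ± 0.12 in females (limma adjusted p = 0.220) and 0.42 ± 0.13 in males (adjusted p = 0.128). The differences of the other adipocyte markers were below 0 in females and above 0 in males. The 5 capsule and stroma markers summed to 2379 to 4350 and 2263 to 3369 in control and Bmal1 KO females, again with none called. The part of these cells in the level of Hsd11b1 was not tested. Hsd11b1 overlaps 4930570N18Rik, Lamb3 and Gm38118 in the annotation. No 50-base window of its longest coding transcript, 1623 bases, recurs elsewhere, and the rest of its 4251 exon bases was not checked.

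Hsd11b2 (ENSMUSG00000031891, chr8:105518755-105523988, plus strand) was close to the limit of detection, with 1 to 22 reads per library. It lay between 5.15 and 19.9 normalised reads in control females, 3.60 and 8.65 in Bmal1 KO females, 0.988 and 6.63 in control males and 3.24 and 7.60 in Bmal1 KO males. A count of 3 reads was worth 2.39 to 4.62 normalised reads, depending on the library. In controls the female minus male difference was 1.10 ± 0.39 (adjusted p = 0.0393), with overlapping ranges. That call held in 20 of the 31 alternative settings that tested the gene, and the adjusted p reached 0.350 with age as a covariate. The other genotype and sex comparisons of Hsd11b2 made no call in any setting. Per kb of all annotated exons, Hsd11b1 exceeded it 33.0 to 226 times in females and 57.8 to 582 times in males.

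H6pd, which supplies NADPH to HSD11B1 inside the endoplasmic reticulum, was also higher in females. Its level was 3204 ± 382 normalised reads in control females and 2387 ± 97.8 in control males, a difference of 0.42 ± 0.07 (adjusted p = 0.000160), and 3532 ± 180 against 2524 ± 166 in Bmal1 KO libraries, a difference of 0.49 ± 0.08 (adjusted p = 0.000117). Of the 10 genes of NADPH supply, 5 were called higher and 2 lower in control females than in control males, against 13.5% and 12.9% of all genes, and their median log2 difference was 0.28, against -0.05 over all genes. The 3 that differed most were Nadk, an NAD kinase (0.98), Me1, malic enzyme (-0.96), and Pgd of the pentose phosphate pathway (0.50). For genotype limma called 0 of the 10 in either sex, with 1 at an unadjusted p under 0.05 in females (Nnt) and 1 in males (Idh1). Over all 26612 tested genes, 3110 and 2899 were at such a p.

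Srd5a3 (ENSMUSG00000029233, chr5:76140271-76155504, plus strand) was the most even of the 6 better measured members, with a coefficient of variation of 21.9% over all 20 libraries. Control females 1 to 5 had 777, 644, 630, 724 and 582 normalised reads, and control males 1 to 6 had 638, 550, 559, 585, 516 and 522. Females labelled Bmal1 KO had 552, 846, 796, 681 and 644, and males labelled Bmal1 KO 562, 435, 395 and 323. Male 1 of the last group lay inside the control range, and the other 3 lay below it. The Bmal1 KO minus control difference was 0.06 ± 0.13 (adjusted p = 0.926) in females and -0.41 ± 0.13 (adjusted p = 0.168) in males. Without Bmal1 KO male 1 the male value was -0.55 ± 0.13 (adjusted p = 0.0377), the only 1 of 33 alternative settings that called it. The test of the female against the male effect gave 0.47 ± 0.19 (limma adjusted p = 0.677).

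The sex difference of Srd5a3 was 0.25 ± 0.12 (adjusted p = 0.146) in controls and 0.73 ± 0.14 (adjusted p = 0.000558) in Bmal1 KO libraries, a mean ratio of 1.64, and the second was called in all 33 alternative settings. Of 8 other genes of dolichol synthesis, 5 were called higher and 0 lower in females in controls, against 13.5% and 12.9% of all genes. In Bmal1 KO libraries it was again 5 and 0, against 12.1% and 10.6%, and in each genotype the other 3 were not called. The median log2 difference of the 8 was 0.26 in controls and 0.30 in Bmal1 KO libraries, with medians of -0.05 and -0.07 over all genes. Dolk, the kinase that makes dolichol phosphate, differed by 0.62 ± 0.08 (adjusted p = 4.12e-06) in controls and 0.70 ± 0.09 (adjusted p = 3.60e-06) in Bmal1 KO libraries. Dpm1, part of the dolichol-phosphate mannose synthase, differed by 0.35 ± 0.09 and 0.38 ± 0.10, and Nus1, a subunit of the enzyme that builds the polyprenol chain, by 0.32 ± 0.08 and 0.32 ± 0.09. For genotype limma called 0 of the 8 in either sex, with 0 at an unadjusted p under 0.05 in females and 1 in males (Dpm3). Over all 26612 tested genes, 3110 and 2899 were at such a p.

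**Figure D5:**
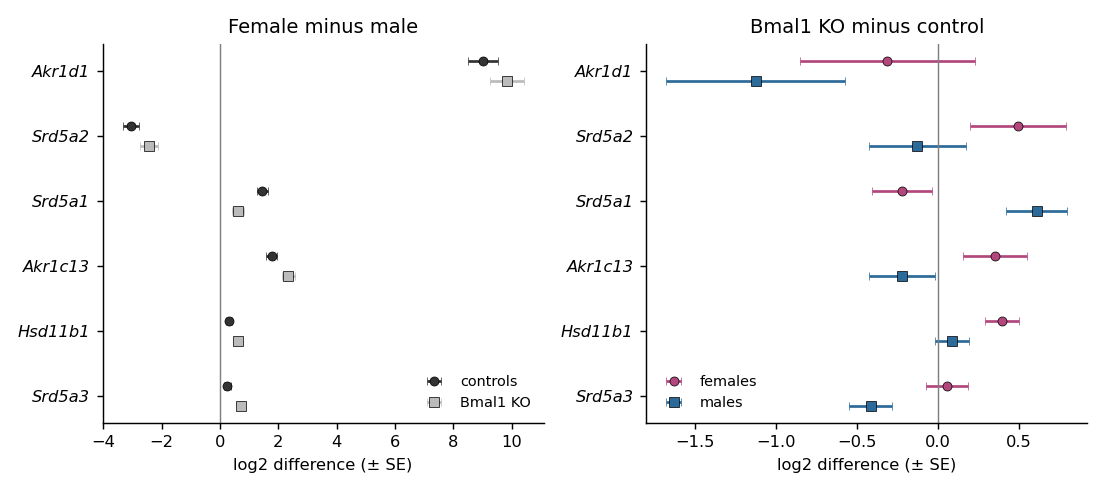
Log2 differences ± SE of the 6 members with a group mean of at least 50 normalised reads, female minus male by genotype (left) and Bmal1 KO minus control by sex (right), on separate horizontal scales. On the left Akr1d1 lies at 9.03 and 9.84 and Srd5a2 is the 1 gene below 0, and on the right no difference passed the threshold.

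For genotype the 9 members gave 0 calls in females, against 1.12% of all tested genes called higher and 0.635% lower, and 0 calls in males, against 0.763% and 0.567%. At an unadjusted p under 0.05 there was 1 member in females (Hsd11b1) and 2 in males (Srd5a1 and Srd5a3). Over all 26612 tested genes, 3110 and 2899 were under that mark. The difference of the genotype effects between the sexes gave 0 calls, against 0.0301% of all genes. There 3 members were at an unadjusted p under 0.05 (Srd5a1, Srd5a3 and Hsd11b1), against 1715 of all 26612 genes. DESeq2 called 1 member in females and 0 in males, against 912 and 719 of 26555 genes. With edgeR it was 0 in both, against 518 and 401 of 18387 genes. With shares of all genes called this small, 0 calls among 9 genes does not set the members apart. These comparisons share their control and Bmal1 KO libraries with the sex comparisons, so the values are given side by side and not as separate evidence.

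Over both genotypes, 3 of the 9 members (Akr1d1, Akr1c13 and Srd5a2) had no overlap between the 10 females and the 10 males, against 7.31% of all tested genes. These 3 and Srd5a1 in controls were called in all 33 alternative settings, including those that restricted or adjusted for age. Within ages 2.4 to 3.7 months, and also without the 1.5-month control females, 4 members were called in controls in place of 6.

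The levels per kb gave a different order in each sex. This order rests on the length of all annotated exons, and Hsd11b1 and Srd5a3 would stand higher by their longest coding transcript. In females Akr1d1 stood above the other 8 members, followed by Srd5a2 (850 to 3700 per kb) and Akr1c13 (1036 to 2025), whose ranges overlapped, as did those of Hsd11b1 (273 to 475) and Srd5a1 (240 to 478). Srd5a3 came next at 119 to 182, and Akr1c12, Akr1c14 and Hsd11b2 overlapped one another at or below 17.8 per kb. In males Srd5a2 stood alone at 10001 to 16125, and Akr1c13 (189 to 501) and Hsd11b1 (239 to 341) overlapped. Srd5a1 (105 to 268) overlapped Akr1c13, Hsd11b1 and Srd5a3 (69.4 to 137). Akr1d1 (3.31 to 112) reached up into the ranges of Srd5a1 and Srd5a3 and down into the range of the 3 low genes.

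Genes with the nearest pattern were sought among 13217 genes with a symbol and a mean of at least 50 normalised reads, by Pearson r over the 20 libraries, which share sex, genotype and depth. Nearest to Akr1d1 were Prr16 (r = 0.995), Frzb (0.989) and Xist (0.984). With the 4 group means subtracted these were 0.909, 0.734 and 0.775. On the log2 scale Akr1d1 spanned 14.7 to 15.7 in females and 3.40 to 8.35 in males, at 12 to 211 reads. Its within-group values thus weigh the low levels of the males most. For Srd5a2 the nearest genes were Gm15645 (0.990), Kcnj5 (0.971) and Gm21750 (0.970), with 0.929, 0.778 and 0.783 within groups. Akr1c13 was nearest to Nrep (0.968), Ppp2r1a (0.967) and Pon3 (0.965), and within groups these were 0.574, 0.639 and 0.572. Srd5a1 was nearest to Zdhhc20 (0.939), Qser1 (0.923) and Edem3 (0.921), with 0.656, 0.663 and 0.769 within groups. Hsd11b1 was nearest to Mgp (0.922), which encodes a matrix protein, Spon1 (0.919) and Phlda3 (0.909), with 0.773, 0.728 and 0.626 within groups. For Srd5a3 they were Clec2l (0.867), Ttc7b (0.850) and Xrcc6 (0.824), with 0.601, 0.626 and 0.561. Of the 3 low genes, Akr1c14 was nearest to Itih5 (0.867, within groups 0.843), Akr1c12 to Hspa4l (0.772 and 0.798) and Hsd11b2 to Nif3l1 (0.770 and 0.723).

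Steroids on which several of these enzymes can act come from corticosteroid synthesis. Of its 12 genes, 4 were called higher, 3 lower and 5 neither way in females in controls, against 13.5% and 12.9% of all genes, and in Bmal1 KO libraries 3 were called higher and 2 lower, against 12.1% and 10.6%. Their median log2 difference was -0.06 in controls and -0.11 in Bmal1 KO libraries. The largest differences in controls were those of Cyp17a1 (-2.60 ± 0.44), Hsd3b6 (-1.57 ± 0.43) and Cyp11b1, which completes corticosterone (0.92 ± 0.18). Cyp17a1 was close to the limit of detection in control females, with a mean of 5.21 normalised reads, against 36.5 in control males. Hsd3b6 ran from 1868 to 3837 in control females. It stood at 3081 and 3480 in control males 5 and 6, both 2.9 months old, and at 8539 to 12542 in the older control males. For genotype, Por, the electron donor of microsomal cytochromes P450, fell by 0.54 ± 0.11 (adjusted p = 0.0132) in females, and Cyp11a1 (-0.71 ± 0.16, adjusted p = 0.0321) and Star (-0.69 ± 0.15, adjusted p = 0.0238) fell in males. In the other sex they were not called: Por -0.41 ± 0.12 (limma adjusted p = 0.0991) in males, Cyp11a1 -0.19 ± 0.16 (0.727) and Star -0.53 ± 0.15 (0.0815) in females. The test of the female against the male effect called 0 of the 12 genes.

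Of 13 other aldo-keto reductases, 3 were called higher and 1 lower in control females than in control males, against 13.5% and 12.9% of all genes, with a median log2 difference of 0.12. They were led by Akr1c18 (8.56 ± 0.73, adjusted p = 2.47e-08), Akr1b10 (-0.61 ± 0.09) and Akr1cl (0.47 ± 0.08). In Bmal1 KO libraries it was 4 and 1, against 12.1% and 10.6% of all genes, with Akr1c20 added at 2.33 ± 0.50. Akr1c20 was close to the limit of detection, with a mean of 13.7 normalised reads in Bmal1 KO females and 3.37 in Bmal1 KO males. Akr1c18 differed by -0.27 ± 0.76 between the genotypes in females and by -1.55 ± 0.78 in males, without a call, and Akr1cl fell by 0.44 ± 0.09 (adjusted p = 0.0117) in males labelled Bmal1 KO. Among 14 tested 17-beta and related dehydrogenases, 4 were called higher and 3 lower in females in controls, against 13.5% and 12.9% of all genes, with a median log2 difference of 0.24. Among those called, Hsd17b7 (2.26 ± 0.35), Hsd17b13 (-1.35 ± 0.47) and Hsd3b7 (0.56 ± 0.18) were furthest apart. Of these Hsd17b13 was at the limit of detection, with means of 1.03 normalised reads in control females and 3.85 in control males. For genotype limma called 0 of the 14 in either sex, with 0 at an unadjusted p under 0.05 in females and 1 in males (Hsd17b11). Over all 26612 tested genes, 3110 and 2899 were at such a p.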

How the data were processed

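RNA-seq of 20 whole mouse adrenal libraries was taken from a deposited table of normalised read counts, a depth-scaled signal per gene. Per the submitters' processing notes FastQC, MultiQC, featureCounts, Salmon and DESeq2 were used with mm10 and GRCm38. Versions, order and any strand setting: not given in the sources used here. In every library 100% of values were whole multiples of 1 read (tolerance 0.01 read), and reads were recovered by that factor.

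Values were tested as log2(value + 1) with limma 3.58.1 (trend, 1 mean per group, R 4.3.3) over the 26612 genes with at least 1 in at least 4 libraries, with Benjamini-Hochberg adjustment at 0.05. The test was checked on simulated data. On recovered reads edgeR 4.0.16 called 518 genes for Bmal1 KO in females, 401 in males, 10 for their difference, and 6923 and 6099 for sex in controls and in Bmal1 KO libraries. DESeq2 1.42.0, limma-voom, other pseudocounts and filters, TMM, age, a replicate block and single left-out libraries were alternatives.

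The labels name no animals. Ages differ within each group, but libraries of equal age could share an animal. A p-value thus reflects the spread among these libraries alone, part of which could be technical. Positions, exon lengths and overlaps are those of GENCODE M21 (GRCm38). The table gave 9761 genes no symbol. Members, gene lists and tests were chosen with earlier results of these data known. Pathway genes were named by a written rule: up to 3 called genes per list and comparison with the largest log2 difference, Akr1c18 and H6pd, and the 3 nearest patterns per member (1 for the 3 low genes). A further gene list is not reported here. Outside the rule, Nnt, Idh1, Dpm3 and Hsd17b11 name small counts, Akr1c19 and Akr1e1 are cluster genes, and Star, Th, Alb, Cyp2e1, Umod, Slc34a1 and the X-zone genes are listed markers. The small counts and cluster genes, Arntl, Nr1d1, Xist as a male marker, and the range of ages 2.4 to 3.7 months, were added after the data were seen.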

Additional observations from a re-analysis of the deposited data

Results flagged for a closer look

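In 36 groups of 4 to 6 libraries (9 genes, 4 groups) the highest or lowest value was checked for a gap to its neighbour that exceeds Dixon's 95% limit, which chance passes in about 1 of 20 groups. Akr1c14 in control male 1 stood at 29.65 normalised reads, and the next control male at 14.7. Hsd11b1 in the same library stood at 1328 normalised reads, with the next control male at 1085 and the lowest at 1015.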

How the results depend on the processing

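Over 33 alternative settings the sex calls of Akr1d1, Akr1c13 and Srd5a2 in both genotypes, of Srd5a1 in controls and of Srd5a3 and Hsd11b1 in Bmal1 KO libraries all held. Members called for genotype in females went from 0 to 1 (Hsd11b1) with a filter at 10 normalised reads, DESeq2 or limma-voom, and to between 0 and 1 with single libraries left out. In males they went from 0 to 1 with the replicate block (Srd5a1, 0.76, adjusted p = 0.0201), a fit in which control male 6 has no partner, and to between 0 and 1 with single libraries left out. Correlations of same-numbered deviations ran from 0.0137 to 0.233 between the female groups and from -0.103 to -0.0191 between the male groups. In females the same-numbered library was the closest match for replicates 1, 2 and 4 but not for 3 and 5, and in males for none. Whether the replicate number pairs the female libraries was not tested. The block changed no other call of a member named here. With single libraries left out, the genotype difference of Srd5a3 in females ran from -0.011 to 0.142 and that of Hsd11b1 in males from -0.024 to 0.148.

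Counts of all genes called moved by over 1.5 times as follows. For Bmal1 KO in females (467) DESeq2 gave 912, leaving out the 1.5-month control females 262, and ages 2.4 to 3.7 months only 222. In males (354) DESeq2 gave 719, the contrast's groups alone 195, the age range 186, and leaving out control male 2 or Bmal1 KO male 4 gave 229 or 217. For the difference of effects (8) DESeq2 gave 83, limma-voom 3, age as a covariate and the age range 0, and single libraries left out 0 to 16. For sex in controls (7023) age as a covariate gave 3746 and the age range 3652. Depth limits Akr1c12, Akr1c14 and Hsd11b2, whose group means stayed below 50 normalised reads. Sex and age are partly confounded in the controls.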

Other observations

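Age was related to the level of 6 members within each sex, 12 relations in all, added after the values were seen and given with Benjamini-Hochberg adjustment. None passed: the lowest adjusted p was 0.167 for Pearson's r and 0.197 for Spearman's rho. The relation with the lowest raw Pearson p was that of Srd5a1 in the 10 males (r = -0.694, permutation p = 0.0265; rho = -0.646, permutation p = 0.0492), and without the 2 libraries farthest from the median age r was -0.167, so it rests on those libraries. Among the 6 control males it was -0.809 and among the 4 males labelled Bmal1 KO -0.0237. The lowest raw Spearman p was that of Srd5a3 in males (rho = 0.715, permutation p = 0.0259; r = 0.589, permutation p = 0.0647), with r = 0.495 without the 2 farthest libraries, 0.643 among the controls and 0.931 among the 4 labelled Bmal1 KO. For Akr1c13 r was -0.651 in males (permutation p = 0.0417) and 0.670 in females (permutation p = 0.0337), and without the 2 farthest libraries -0.566 and 0.420. For Akr1d1 in males r was -0.489 (permutation p = 0.154; rho = -0.565, permutation p = 0.0933), with -0.751 among the 6 control males and -0.777 among the 4 males labelled Bmal1 KO.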
